A study of Mus musculus with 2 samples.

Results

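The genes described here encode the enzymes and transporters that take glucose to pyruvate and lactate, the enzymes of the pentose phosphate branch, the kinases that gate pyruvate entry into the mitochondrion, and Hif1a with a set of its targets. The list has 40 genes, out of 18193 genes that the array's annotation names. They were taken by symbol, using every probe set whose annotation names 1 member gene and no other. Of the 40, 36 had at least 1 such probe set, 79 probe sets in all. Gapdh was named only on 3 probe sets that also name other genes, and Gpi1, Eno1 and G6pdx on none, so these 4 have no value here.

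The RNA came from hematopoietic stem cells (HSC, the marrow cells from which blood is renewed) of mice aged 3 months. There were 2 arrays, 1 of cells labelled SIRT6 knockout and 1 of cells labelled wild type. The sources used here do not give the allele, the sort gate or the number of animals behind each RNA sample. With 1 array per genotype there is no replicate error, so every difference below is between these 2 RNA samples, and no test between genotypes was made.

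Glycolysis splits glucose into pyruvate. Hexokinase, phosphofructokinase and pyruvate kinase drive its 3 irreversible steps, and fructose-1,6-bisphosphatase (Fbp1) runs the phosphofructokinase step backwards in gluconeogenesis. Lactate dehydrogenase turns pyruvate into lactate, while pyruvate dehydrogenase, held off by the Pdk kinases, sends it to the mitochondrion. Hif1a, the oxygen-regulated transcription factor, raises many of these genes when prolyl hydroxylases of the Egln family stop marking it for destruction. Sirt6, a chromatin deacylase, is known from other cells as a co-repressor of Hif1a at glycolytic genes, and HSC are known for leaning on glycolysis in the low-oxygen marrow. The comparison bears only on whether transcripts of this pathway differed between the RNA sample labelled knockout and the wild-type RNA sample. An effect of the genotype on them was not tested.

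The values are MAS5 signals on a linear scale. A floor was set at the median of the mean log2 signal over all 45037 probe sets (60.5 signal units), and each gene was represented by its brightest probe set. Of the 36 members with a probe set, 34 lay above the floor on both arrays, 0 on 1 array only, and Pdk2 and Pdk4 under it on both. Over all genes, 10831 lay above the floor on both arrays, with a median log2 ratio of -0.00083 (labelled knockout over wild type, as throughout). Probe sets of 1 gene differed in their log2 ratio with an SD of 0.22 over 4632 genes. This SD can mix technical error with differences between the transcripts that the probe sets target. It leaves out error shared by a whole array and the error between animals. It was 0.25 for signals below 128 and 0.065 for signals above 2048.

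The single Sirt6 probe set did not read lower on the array labelled knockout, with signals of 174 there and 124 in wild type (log2 ratio 0.49). The sources used here do not say where it lies relative to the disrupted part of the gene, so it does not check the label. All directions below rest on that label.

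Marker genes of the labelled cell type and of other blood cells differed between the same arrays. Of 15 HSC markers, 13 were measured on both arrays. On the array labelled knockout, 7 of them were lower by 1.5-fold or more and 0 were higher by as much, and their summed signal was 6252 against 9251, with none under the floor. The largest difference was in Ndn (log2 ratio -1.58). Of 18 granulocyte and granulocyte-progenitor markers, 15 were measured. Among these 11 were higher by 1.5-fold or more and 0 lower, and the summed signal was 39624 against 25450, led by Lcn2 (1.26). Mmp8 of that list was under the floor. Of 13 monocyte and macrophage markers, 10 were measured, and F13a1 (1.57) and Ms4a6c (0.63) passed 1.5-fold, both higher. Their summed signal was 4963 against 3784, and Cd14 was under the floor. Of 7 measured basophil and mast cell markers, 3 were higher and 1 lower by that size (summed signal 5332 against 4059). For B cells it was 3 higher and 1 lower of 7 (2039 against 4360.1), with Ebf1 and Ms4a1 under the floor and Cd79a above it only on the array labelled knockout (87.7 against 38.4). The lower B cell sum came from Ighm (707 against 3684, its 7 probe sets from -2.38 to -0.04). The other 6 were all higher, summing to 1332 against 676. For dendritic cells it was 3 lower of 4 (1453 against 2391), and these 4 were the MHC class II genes H2-Aa, H2-Ab1 and H2-Eb1 with Cd74. Itgax of that list was above the floor only on the array labelled knockout (74.9 against 57.7). Ccr7, Ciita, Siglech and Xcr1 were under the floor on both. The 4 measured T and NK cell markers were all higher, Thy1 (0.90) and Gzmb (0.85) by over 1.5-fold (2925 against 2305), while Cd2, Cd4, Ncr1 and the 3 Cd3 chain genes lay under the floor. Of 6 measured erythroid markers, Tfrc was higher (0.71) and Car1 lower (-1.96) by that size (5873 against 6074), with Alas2, Hba-a1, Rhd and Slc4a1 under the floor. Of 7 megakaryocyte markers, Itga2b was higher (0.88) and Vwf (-0.87), Pf4 (-0.76) and Rab27b (-0.59) lower (2492 against 2354), with Gp1bb and Ppbp under the floor. Of 5 endothelial and stromal markers, Pdgfrb (0.92) and Pecam1 (0.69) were higher and Emcn (-1.50) and Sparc (-0.86) lower (1526 against 1153). Cxcl12 of that list read 57.4, under the floor, against 461, at least 7.63-fold lower, and 7 others, among them Cdh5 and Col1a1, were under the floor on both. In bulk RNA, fewer cells of a type and less RNA per cell cannot be told apart. The part of these markers in the differences below was not tested.

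The members as a whole leaned toward higher signal on the array labelled knockout, by small amounts. Of the 34 measured members, 25 had a ratio above 1 and 9 below, whereas 49.8% of all 10831 genes had a ratio above 1. The median log2 ratio of the members was 0.17, with a range from -0.72 to 1.93. At a size of 1.5-fold, 2 members were higher (Fbp1 and Egln3, 5.88% of 34) and 1 was lower (Ldhb, 2.94%), against 1.56% of all genes higher and 2.33% lower. Counts this low say little about the list. At a log2 ratio of 0.32 or more in size, 9 members were higher, namely Pfkl, Pfkp, Fbp1, Pkm, Slc16a1, Slc16a3, Egln3, Ero1a and Mxi1 (26.5%), against 6.89% of all genes. Only Ldhb was lower by that much, against 8.03% of all genes. At 2-fold, Fbp1 alone was higher and 0 members were lower, against 0.379% and 0.471% of all genes. The remaining 24 members lay within 0.32 of equal signal on the log2 scale.

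**Figure D1:**
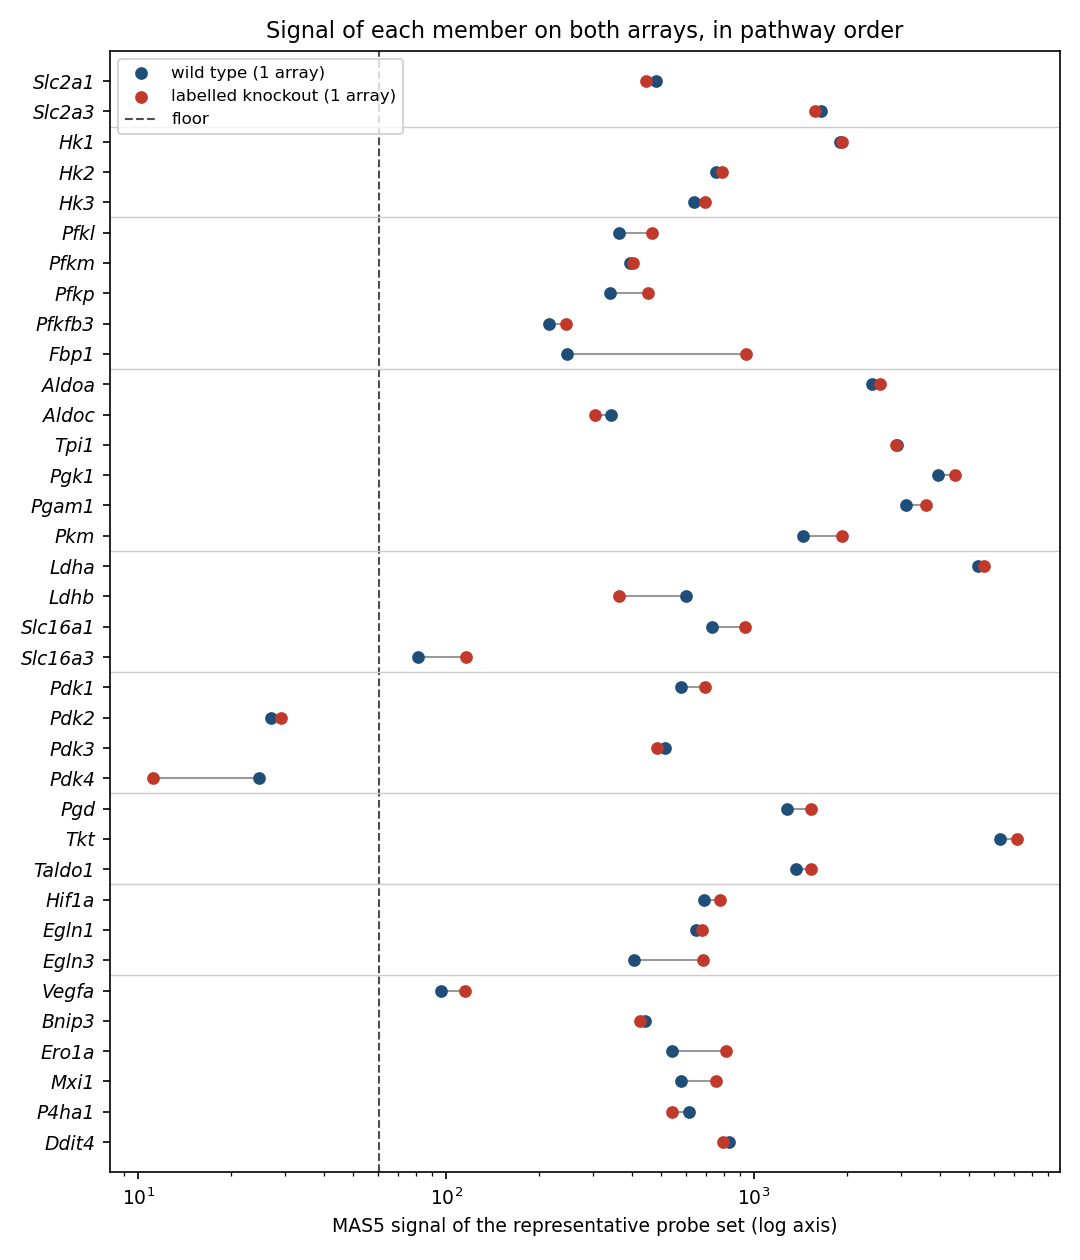
MAS5 signal of the representative probe set of the 36 members with a probe set, on a log axis, in pathway order with roles separated by grey lines; blue points are the wild-type array, red points the array labelled knockout, and the dashed line is the floor of 60.5. Distances within a row are comparable, levels between rows are not; the widest rows above the floor are Fbp1 (940.02 against 247), Egln3 (683 against 408) and Ldhb (364 against 600.4), and Pdk2 and Pdk4 lie under the floor.

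**Figure D2:**
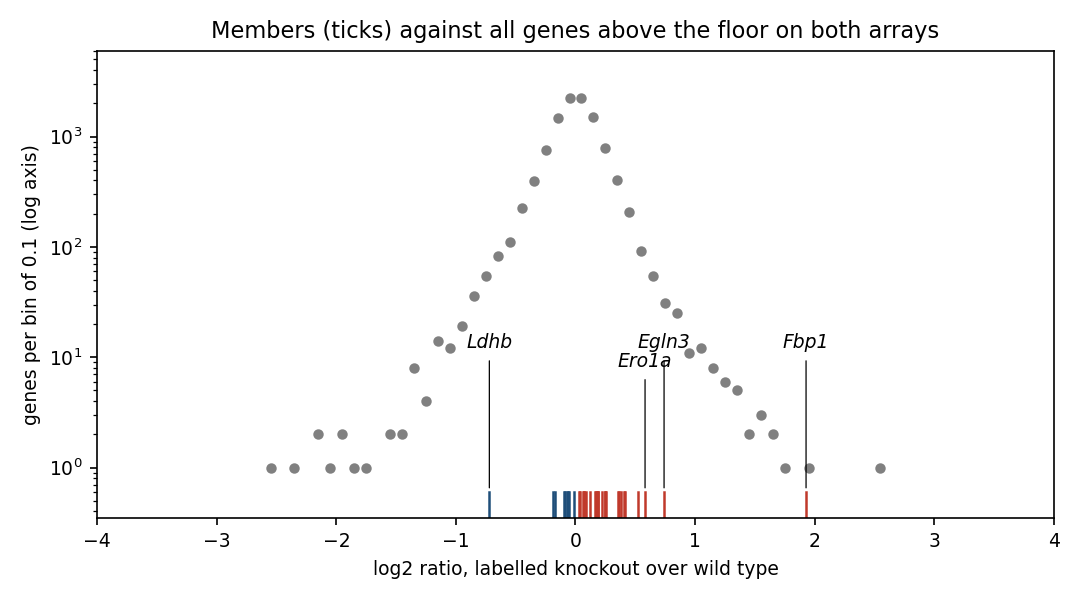
Number of genes per bin of 0.1 in log2 ratio (labelled knockout over wild type) for the 10831 genes above the floor on both arrays, as grey points on a log axis, with the 34 measured members as ticks along the bottom, red for ratios above 1 and blue for ratios below 1. Fbp1 at 1.93 lies where bins hold few genes, and Egln3 (0.74), Ero1a (0.58) and Slc16a3 (0.52) on one side and Ldhb (-0.72) on the other lie outside the span from -0.19 to 0.41 that holds the remaining members.

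The 4 members farthest from equal signal are shown first with the sequence upstream of their transcription start. The stretches are from RefSeq (GRCm38.p6), written 5′ to 3′ on the gene's strand, and end at the base before the annotated gene. Capitals mark the core of the Hif binding element, searched as ACGTG and GCGTG on both strands. A match of ACGTG can also be part of the E-box CACGTG, which did not occur in any of these 4 stretches. All 4 genes are on the minus strand. The Fbp1 stretch is chr13:62888299-62888532, which is 234 bases because the last part of its 250-base window lies inside the annotated gene, and the others are 250 bases, that of Ldhb chr6:142507958-142508207, that of Egln3 chr12:54203875-54204124 and that of Ero1a chr14:45318573-45318822.
Fbp1: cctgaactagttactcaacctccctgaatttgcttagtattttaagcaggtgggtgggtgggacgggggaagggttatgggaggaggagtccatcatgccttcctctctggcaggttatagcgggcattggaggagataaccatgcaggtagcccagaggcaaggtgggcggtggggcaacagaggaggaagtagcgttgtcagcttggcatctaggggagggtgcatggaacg
Ldhb: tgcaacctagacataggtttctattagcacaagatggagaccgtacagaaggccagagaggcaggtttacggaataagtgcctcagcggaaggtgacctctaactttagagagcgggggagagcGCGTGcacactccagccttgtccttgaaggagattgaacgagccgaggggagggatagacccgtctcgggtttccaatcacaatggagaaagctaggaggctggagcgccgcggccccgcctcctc
Egln3: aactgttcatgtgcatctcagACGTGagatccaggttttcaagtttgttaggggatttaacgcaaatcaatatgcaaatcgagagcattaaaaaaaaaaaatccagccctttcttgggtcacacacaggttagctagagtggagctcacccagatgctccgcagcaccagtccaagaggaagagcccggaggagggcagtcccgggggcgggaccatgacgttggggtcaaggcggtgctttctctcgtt
Ero1a: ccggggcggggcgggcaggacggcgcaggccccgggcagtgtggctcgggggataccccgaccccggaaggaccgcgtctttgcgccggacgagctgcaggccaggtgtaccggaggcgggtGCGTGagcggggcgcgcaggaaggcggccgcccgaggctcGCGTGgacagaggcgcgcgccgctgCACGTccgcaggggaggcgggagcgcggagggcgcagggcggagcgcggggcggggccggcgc

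The letters differed between the 4 genes. Egln3 held 1 ACGTG, 229 to 225 bases before the start. Ero1a held 2 GCGTG and, on the other strand, 1 ACGTG at 63 to 59 bases before the start. Ldhb held 1 GCGTG at 126 to 122 bases before the start, and Fbp1 held 0 of either in its whole window of 250 bases. The windows also differed in composition, with 80.8% C+G in Ero1a, 56.4% in Ldhb and in Fbp1 and 50.8% in Egln3. Both searched cores contain CG, which occurred 41 times in Ero1a, 14 in Ldhb, 10 in Egln3 and 5 in Fbp1. The match counts were not adjusted for this. Over the 250 bases before each annotated start, 36 of the 39 members with a window held at least 1 match in a window, and 45 of 57 member windows did (78.9%). The share was 55.8% of the 11273 windows of genes above the floor on both arrays and 38.6% of all 32851 windows. Several Hif1a targets were put on the list as such, so its promoters are not a neutral sample. The median C+G content was 60.4% in the member windows and 59.6% in those of measured genes. Of the 33 measured members with a window, 31 held a match. A gene with several windows had more chances to hold a match, and the share per gene over all genes was not computed. The 2 counts per member gene therefore have no value to be set against. Only the shares of windows can be set side by side, and in them genes with several windows weigh more. The 39 members had 57 windows, against 32851 windows for 27025 genes.

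Glucose uptake and the first phosphorylation step differed little. Slc2a1 (Glut1), the widely used glucose carrier, read 447 on the array labelled knockout and 478 in wild type, a log2 ratio of -0.10. Its further probe sets gave -0.01 and 0.31, so its probe sets went both ways. Slc2a3 (Glut3), a high-affinity glucose carrier, read 1581 against 1649.8 (log2 ratio -0.06), with its second measured probe set at 0.01. The 3 hexokinases, which trap glucose as glucose-6-phosphate, all lay slightly above 1. Hk1 read 1933 against 1898 (log2 ratio 0.03) and Hk2, the isozyme that Hif1a induces, 785 against 751 (0.06). Hk3, an isozyme of myeloid cells, read 693 against 636 (0.12) and gave 0.16 on its second probe set. The ratios of the 3 isozymes spanned 0.10 on the log2 scale, less than the SD of 0.22 between probe sets of 1 gene.

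At the phosphofructokinase step, the liver and platelet isozymes read higher and the muscle isozyme did not. Pfkp (platelet type) read 451 against 340.4, a log2 ratio of 0.41, and its second measured probe set gave 0.14. Pfkl (liver type) read 464 against 364 (0.35). A second Pfkl probe set also gave 0.35, but the third gave -0.06. Pfkm (muscle type), with 1 probe set, read 406 against 396 (0.03). The ratio of Pfkp exceeded that of Pfkm by 0.37 and that of Pfkl exceeded it by 0.32 on the log2 scale, yet the probe sets of Pfkl spanned more than that. Pfkfb3, which makes the fructose-2,6-bisphosphate that activates phosphofructokinase, read 245 against 215 (0.19).

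The reverse step showed the largest difference of the list. Fbp1 (Entrez gene 14121, at chr13:62864753-62888298, GRCm38.p6) read 940.02 on the array labelled knockout and 247 in wild type, which is 3.81-fold higher (log2 ratio 1.93). In order of ratio it was number 2 of the 10831 genes above the floor on both arrays. Among the 4622 genes with a mean signal between 128 and 512, the central 95% of log2 ratios ran from -0.64 to 0.49. Fbp1 has 1 probe set, so no second probe set checks this value. Few other genes of gluconeogenesis could be measured. Pck1, Pcx, G6pc and the muscle isozyme Fbp2 read under the floor in both samples. Pck2, the mitochondrial phosphoenolpyruvate carboxykinase, read 785 against 815 (-0.05), and G6pc3, the widely expressed glucose-6-phosphatase, 539 against 433 (0.31).

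The 6 measured enzymes from aldolase to pyruvate kinase lay, with 1 exception, inside the central 95% of genes of their brightness. Of these 6, 4 had a ratio above 1 and 2 below, and Gapdh and Eno1 had no value. Aldoa, the main aldolase, read 2568 against 2420.4 (log2 ratio 0.09). Of its 5 probe sets, 4 were positive and 1 gave -0.20. Aldoc, the brain-type aldolase, read 304 against 343 (-0.17), so its ratio differed from that of Aldoa by 0.26, within the range covered by the Aldoa probe sets. Tpi1, triose phosphate isomerase, was nearly equal on both arrays at 2882 against 2908 (-0.01), and its 3 probe sets ranged from -0.03 to -0.00061. Pgk1, phosphoglycerate kinase, read 4506 against 3948 (0.19) with its 3 probe sets from 0.16 to 0.22, and Pgam1, phosphoglycerate mutase, 3622 against 3113 (0.22). Pkm, pyruvate kinase, was the exception at 1923 against 1444, 1.33-fold higher (0.41), on its only probe set. The central 95% of log2 ratios ran from -0.38 to 0.39 among the 3636 genes with signals between 512 and 2048, so Pkm lay just above it.

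Lactate dehydrogenase showed the widest split between isozymes. Ldhb, the heart-type subunit that favours lactate use, read 364 on the array labelled knockout and 600.4 in wild type, which is 1.65-fold lower (log2 ratio -0.72; Entrez gene 16832, at chr6:142490249-142507957). Its 4 probe sets were all lower, from -1.02 to -0.64, although 2 of them were built on the same sequence record and are not independent. Ldha, the muscle-type subunit that favours lactate formation and a known Hif1a target, read 5583 against 5319 (0.07). The log2 ratios of the subunits differed by 0.79, a 1.73-fold shift of Ldha relative to Ldhb. Ldha has 1 probe set, so no second probe set checks its value, which lay outside the range of the 4 Ldhb probe sets. Ldhd, which oxidises D-lactate in the mitochondrion, was also lower, at 79.1 against 145 (-0.88), on a dim probe set.

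The lactate carriers leaned the other way. Slc16a1 (Mct1), which moves lactate in both directions, read 937 against 729.6 (log2 ratio 0.36). Slc16a3 (Mct4), the exporter that Hif1a induces, read 116 against 80.8 (0.52), close to the floor. The carriers' ratios differed by 0.16, which is less than the SD between probe sets of 1 gene. Bsg, the chaperone of these carriers, read 861 against 797 (0.11).

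The kinases that switch off pyruvate dehydrogenase had ratios on both sides of 1. Pdk1, the Hif1a-induced form, read 690.03 against 580.3 (log2 ratio 0.25), with 4 probe sets from -0.06 to 0.25. Pdk3 read 485 against 514 (-0.08). Pdk2 (29.2 against 27.0) and Pdk4 (11.2 against 24.6), the form induced by fasting, read under the floor in both samples, and no fold is given. The pyruvate carrier and dehydrogenase genes were mostly slightly higher. Of 8 measured, 6 had a ratio above 1 and 0 were past 1.5-fold, with a median of 0.23. Pdp2, a phosphatase that reactivates the enzyme, was highest (0.30), and Pdp1, the other phosphatase, lowest (-0.23).

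The 3 measured enzymes of the pentose phosphate pathway, which makes NADPH and ribose, were all slightly higher. Pgd, the second NADPH-forming dehydrogenase, read 1525 against 1282 (log2 ratio 0.25), and its 4 probe sets agreed closely, from 0.23 to 0.28. Tkt, transketolase, read 7114 against 6288 (0.18), with its 3 probe sets from 0.03 to 0.23. Taldo1, transaldolase, read 1534 against 1368 (0.17). All 3 lay inside the central 95% of genes of their brightness. Of the other enzymes of this branch, 4 were measured, and Pgls, the lactonase between G6pdx and Pgd, was highest at 1603 against 1304 (0.30), while H6pd was lowest (-0.03).

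**Figure D3:**
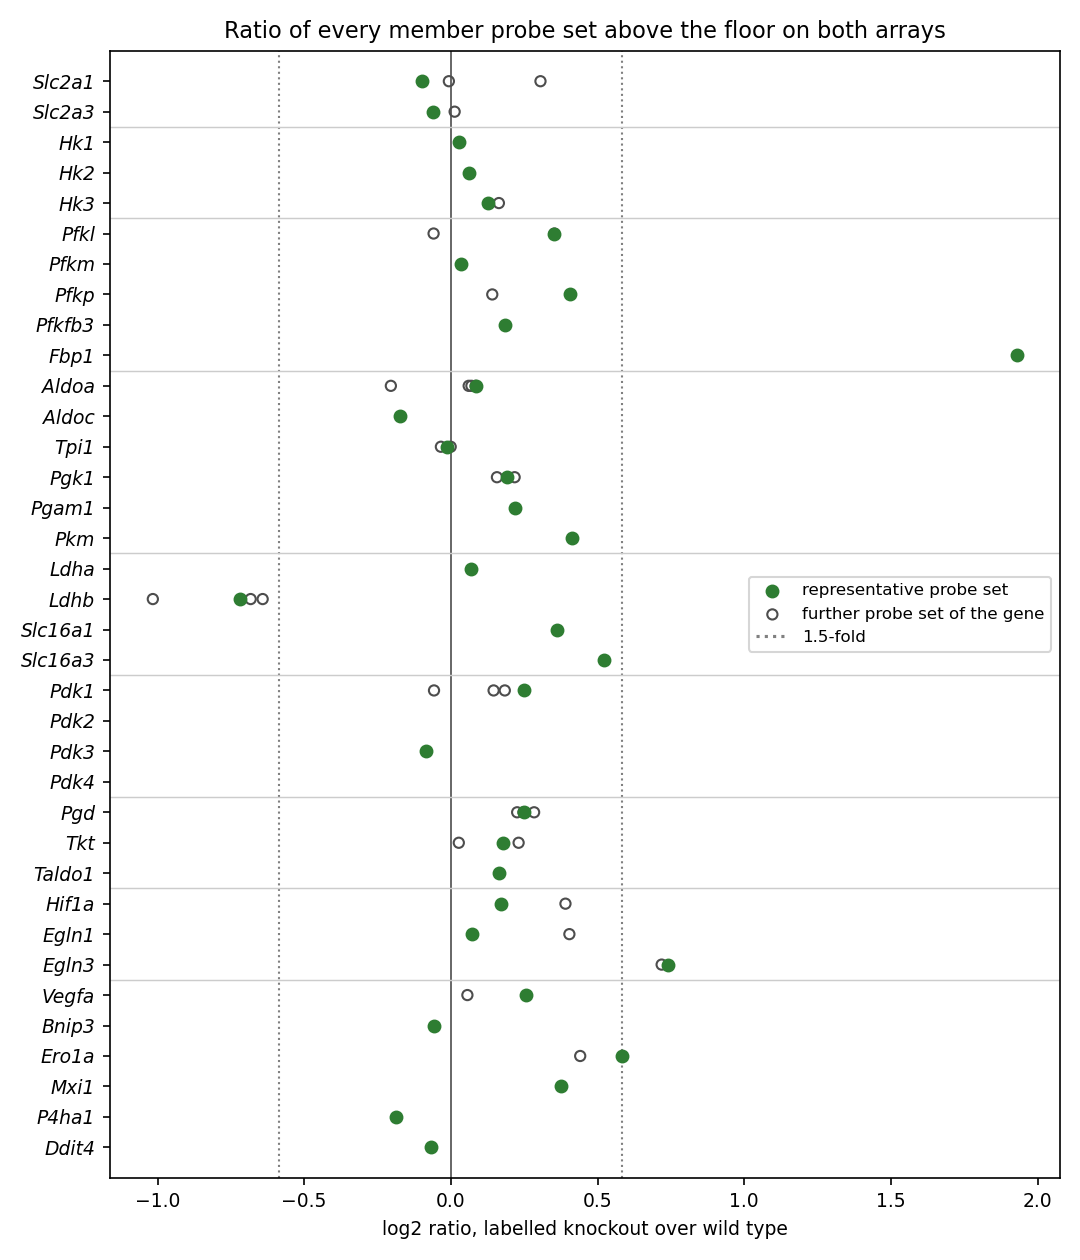
Log2 ratio (labelled knockout over wild type) of the 65 measured member probe sets, by gene in pathway order; filled points are the brightest probe set of a gene, open points its further probe sets, and dotted lines mark 1.5-fold in either direction. All 4 Ldhb points lie beyond the lower line and both Egln3 points beyond the upper, Fbp1 rests on 1 point at 1.93, and Pfkl, Aldoa, Pdk1, Slc2a1 and Slc2a3 have points on both sides of 0.

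Hif1a itself and its hydroxylases differed in size. Hif1a read 776 against 689.5 (log2 ratio 0.17) and gave 0.39 on its other measured probe set. Egln1 (Phd2), the main hydroxylase that marks Hif1a for destruction, read 679 against 646 (0.07), with its second probe set at 0.40. Egln3 (Phd3), a hydroxylase whose own transcript is a Hif target, read 683 on the array labelled knockout and 408 in wild type, which is 1.67-fold higher (0.74; Entrez gene 112407, at chr12:54178981-54203874). Its second probe set read 519 against 315 (0.72), but both were built on 1 sequence record. The ratio of Egln3 exceeded that of Egln1 by 0.67 on the log2 scale, and the probe set ranges of the genes did not overlap.

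The other Hif1a targets went both ways. Ero1a, the oxidase that drives disulfide formation in the endoplasmic reticulum, read 809.5 against 541, 1.497-fold higher (log2 ratio 0.58; Entrez gene 50527, at chr14:45283087-45318572) and just short of the 1.5-fold size. Its second probe set gave 0.44, and the third, above the floor only on the array labelled knockout, read 71.4 against 55.6. All 3 were built on 1 sequence record and are not independent. Mxi1, a Max partner that opposes Myc, read 750.3 against 578 (0.38), and a dim second probe set read lower (59.7 against 69.5, the first under the floor). Vegfa, the angiogenic growth factor, read 115 against 96.3 (0.25). The remaining 3 were slightly below 1: P4ha1, a collagen prolyl hydroxylase, read 541 against 616 (-0.19), Ddit4, an mTORC1 inhibitor, 789.5 against 827 (-0.07), and Bnip3, a mitophagy receptor, 425 against 443 (-0.06).

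A wider set of genes of these pathways went different ways by list, so its pooled count hides lists that leaned apart. Ratios above 1 were found in 6 of 8 genes of pyruvate entry and dehydrogenase and 3 of 4 other pentose phosphate enzymes. The transporters, other enzymes and Hif pathway genes are given below, and 49.8% of all genes had a ratio above 1. Of 77 listed, 70 had a probe set and 47 were measured on both arrays, 25 with a ratio above 1 and 22 below, with a median log2 ratio of 0.04. At least 1.5-fold different were Slc2a9, a urate and hexose carrier, at 206 against 108 (0.93), and Ldhd, lower as given above. Of the other glucose and lactate transporters, with Bsg counted among them, 6 of 9 were measured and all 6 had a ratio above 1. The lowest was Slc16a7 (0.11). Slc16a7, Slc16a8 and Slc2a10 read close to the floor, each on 1 probe set. Of the other enzymes of glycolysis and gluconeogenesis, 13 of 28 were measured, 7 above 1 and 6 below, with Pklr, the liver and red cell pyruvate kinase, highest (0.34). Of 25 other genes of the Hif pathway, 16 were measured, and 13 of these had a ratio below 1. Their median was -0.09, with Kdm3a, a Hif-induced histone demethylase, highest (0.18) and Bhlhe40 lowest (-0.45). Ak4, a mitochondrial adenylate kinase, was also below 1, at 391 against 523 (-0.42). Epas1, which encodes Hif2a, read 144 in wild type and 47.5, a value under the floor, on the one labelled knockout, at least 2.38-fold lower. Of the 16 measured on both arrays, 0 differed by 1.5-fold on their brightest probe set. Ndrg1 gave -0.15 there, but its 5 measured probe sets ran from -1.19 to -0.02.

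**Figure D4:**
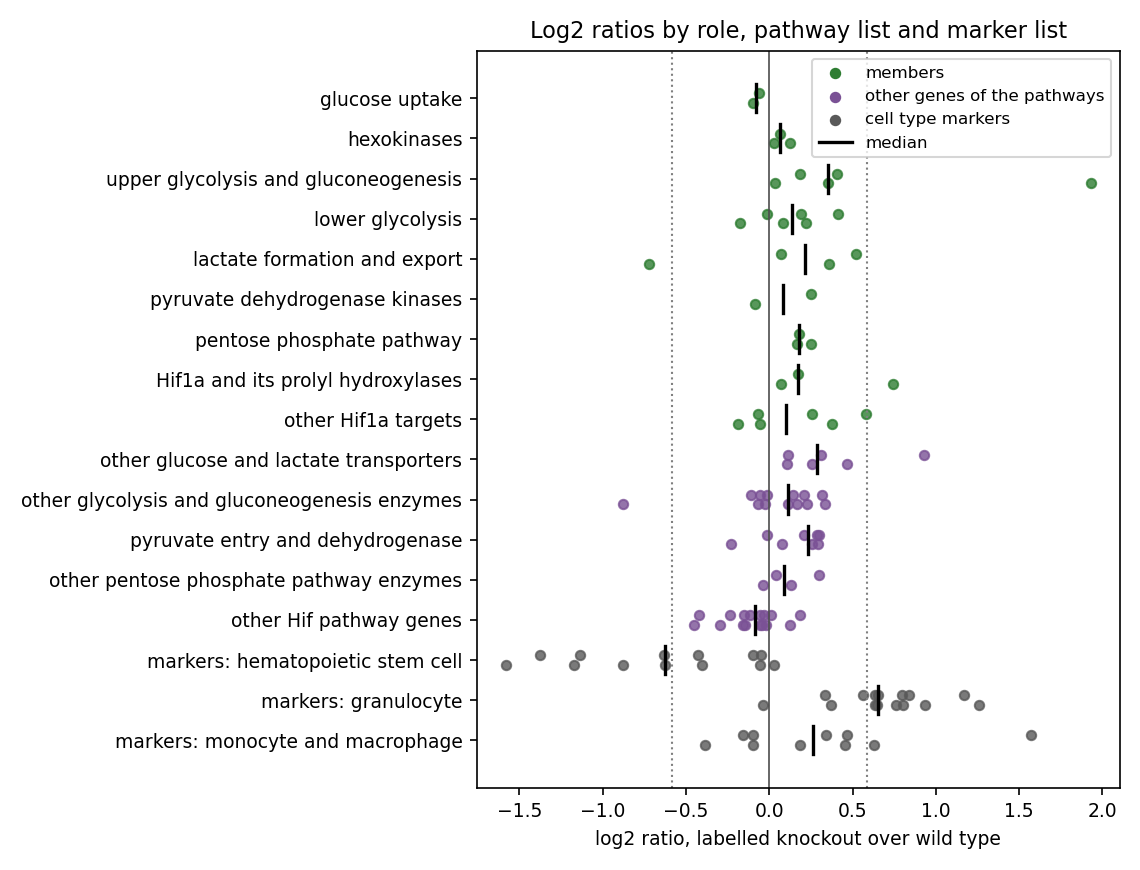
Log2 ratios (labelled knockout over wild type) of genes above the floor on both arrays, 1 point per gene, for the members by role (green), other genes of the pathways (purple) and 3 marker lists (grey); black bars are medians and dotted lines mark 1.5-fold. Member and pathway points lie mostly between the lines, while the granulocyte markers (median 0.65) lie to the right and the HSC markers (median -0.63) to the left.

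Agreement between probe sets varied among the members. Of 17 members with several measured probe sets, 10 were higher on all of them, 2 (Ldhb and Tpi1) lower on all, and 5 were split. Over all 4632 such genes, the probe sets of 52.4% all pointed the same way. The SD between probe sets was 0.14 among these members. Of the 34 measured members, 4 lay above the central 95% of genes of their brightness (Fbp1, Pkm, Egln3 and Ero1a) and 1 below it (Ldhb).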

How the data were processed

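The data were 2 Affymetrix arrays, 1 per genotype, given as 1 signal intensity per probe set in the deposited value table. MAS5 made these values, per the submitters' processing notes. It summarises each array on its own and scales it, and the sources used here do not give the scaling target, the version or detection calls. Median signals were 60.7 (labelled knockout) and 60.8 (wild type), and the values were used as deposited, as log2. Their number limits the precision. Of 45037 probe sets, 34945 named 1 gene, 932 several and 9160 none in the platform annotation; symbols were updated through Entrez identifiers to RefSeq (GRCm38.p6), and only probe sets with 1 gene were used. The floor was percentile 50 of the mean log2 signal, and the brightest probe set stood for a gene.

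Alternatives were quantile normalization, median centring, loess (span 0.3), the floor removed or set to percentile 25 or 75, the floor added as a pseudocount before log2, the median of a gene's probe sets, leaving out _x_at and _s_at probe sets, and sizes of 0.32 in log2 ratio and 2-fold. The code was run on simulated data in which every planted shift exceeded 1.5-fold. That checks the code, and not smaller differences or the error between animals. Named were all members, other pathway genes past 1.5-fold with the highest and lowest of each list, and the leading markers. Pck1, Pcx, G6pc, Fbp2, Pck2, G6pc3, Bsg, Slc16a8, Slc2a10, Ak4, Ndrg1, Epas1, Ms4a6c and the markers of lists other than HSC and granulocyte were named after their values were seen. The members and lists were chosen with earlier results of these data known. Python 3.11.15, numpy 2.4.6, pandas 2.3.3, statsmodels 0.14.6 and matplotlib 3.10.9 were used.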

Additional observations from a re-analysis of the deposited data

How the results depend on the processing

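With 1 array per genotype no replicate could be left out, and no alternative measures the error between animals. No paired analysis was possible because each genotype has 1 array. Under quantile normalization, median centring, loess, the other floors, no floor, the pseudocount, the median over probe sets and without _x_at and _s_at probe sets, 0 of the 34 measured members changed sign where they had a value. Much of this was fixed by construction. The other floors and no floor kept each gene's brightest probe set, so no member's ratio could move. Median centring shifted every ratio by the same small amount, and a pseudocount cannot change a sign. The next count includes these settings. Of 301 single-member values, 300 moved by less than the SD of 0.22 between probe sets; the exception was Fbp1, at 1.70 with the pseudocount, which shrinks ratios by construction. Its values ranged from 1.70 to 1.96, those of Egln3 from 0.66 to 0.76 and those of Ero1a from 0.51 to 0.60, and Ldhb ranged from -0.72 to -0.64. The number of members at least 1.5-fold higher was 2, or 3 under quantile normalization and loess, where Ero1a passed; it was 9 at a log2 ratio of 0.32 and 1 at 2-fold. The number at least 1.5-fold lower was 1, 0 at 2-fold and 2 with no floor, where Pdk4 entered at signals under the floor. The median of the members was 0.12 with the floor at percentile 75, which left 31 members, and 0.15 to 0.18 under the other settings. Quantile normalization moved the share of all genes with a ratio above 1 from 49.8% to 54.2%, and no floor to 55.7%, while 25 of 34 members had a ratio above 1 under quantile normalization too. Signals near the floor, as for Slc16a3 and Vegfa, limit those ratios.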

Other observations

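Neighbouring parts of central carbon metabolism, on lists chosen after the data were seen, lay close to equal signal. Of 15 measured enzymes of the TCA cycle, which oxidises acetyl units in the mitochondrion, 11 had a ratio above 1 and 0 were past 1.5-fold, with a median log2 ratio of 0.02. Cs, citrate synthase, read 1690.02 on the array labelled knockout and 1533 in wild type (0.14). Of 8 enzymes of NADPH formation and the citrate and malate shuttles, 6 had a ratio above 1 and 0 were past 1.5-fold. Idh1, the cytosolic NADPH-forming isocitrate dehydrogenase, was the highest of these at 512 against 370 (0.47, with its second probe set at 0.62), while the mitochondrial Idh2 read 2004 against 1965 (0.03). Of 6 measured glycogen enzymes, Pygl, the liver-type phosphorylase, was highest at 717 against 560 (0.36) and Gys1, the synthase, read 324 against 255 (0.34).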
